A study of Mus musculus with 23 samples.

Results

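Crystallins and lens fibre genes were followed through 23 RNA-seq libraries of GFP+ microglia sorted from mouse retina. The 10 genes are Cryaa, Cryab, Crybb1, Crybb2, Cryba1, Crygs, Crygd, Mip, Lgsn and Gja3, of 35825 genes in the table, and each was found by the Ensembl identifier of its symbol. They were chosen from measured values, namely the difference between Spp1 knockout and control libraries after elevation of the intraocular pressure (IOP), so that contrast and those that share its libraries are described here without a test. All libraries carry the CX3CR1-GFP reporter, an allele that puts GFP in place of the microglial receptor gene Cx3cr1. Heterozygous reporter mice entered the crosses, and the labels do not give the number of copies in each library. WT denotes CX3CR1-GFP alone and KO denotes Spp1 KO; CX3CR1-GFP, a global loss of the gene for the secreted protein osteopontin and therefore not one limited to microglia. Each genotype was sampled in control retinas, called naive here (4 libraries each). Other libraries were taken at 4 weeks after IOP was raised by microbeads injected into the anterior chamber (4 each). The remaining ones were taken at 7 days after optic nerve crush (ONC, 3 WT and 4 KO). The labels say control, and in the paper's microbead model control mice received saline, so whether these eyes were injected is not given. Each library holds cells pooled from the retinas of several mice, so a spread between libraries is a spread between pools. The ages of the animals are not given in the sources used here.

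Crystallins are the abundant soluble proteins of the lens. The alpha-crystallins are small heat shock proteins that act as chaperones, whereas beta- and gamma-crystallins are a related family that fills the fibre cells and gives the lens its refractive index. Mature fibre cells also depend on channels and junctions: Mip encodes aquaporin 0, the main membrane protein of fibre cells, Gja3 encodes the gap junction protein connexin 46, and Lgsn encodes lengsin, a lens relative of glutamine synthetase. Cryab, by contrast, is made in many tissues, among them glia and neurons of the retina. The lens lies between the anterior chamber and the retina, and the tissue dissociated here was retina.

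The members lie on 8 chromosomes, and clusters of crystallin genes share sequence. Crygd (chromosome 1, bases 65061872 to 65063452, minus strand; positions are GENCODE M21 on GRCm38) belongs to a row of gamma-crystallin genes. Its coding sequence is 91.6% identical to that of Cryge, and the longest run of identical coding bases shared by both is 153 bases long, so reads can be split between them and the separate counts of these genes are uncertain. Cryge and Crygf are 98.1% identical to each other. The first 90 coding bases show how little tells these genes apart, with capitals marking bases that differ from Crygd:
Crygd: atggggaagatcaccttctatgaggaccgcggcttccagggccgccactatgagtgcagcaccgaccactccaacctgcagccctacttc
Cryge: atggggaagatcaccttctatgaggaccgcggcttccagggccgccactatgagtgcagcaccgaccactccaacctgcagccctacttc
Crygf: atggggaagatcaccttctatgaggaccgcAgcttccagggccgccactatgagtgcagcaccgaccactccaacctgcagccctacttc
Cryge has 0 differences from Crygd in this stretch and Crygf has 1. Cryaa and Cryab, the pair compared most below, are 71.9% identical over aligned coding bases with a longest shared run of 22 bases. On chromosome 5, Crybb1 (bases 112255815 to 112269585, plus strand) and Cryba4 (bases 112246493 to 112252518, minus strand) stand head to head with 3296 bases between them. Crybb2 (bases 113058258 to 113070117) lies on the same chromosome, 8.62 megabases from Spp1, the gene targeted in the KO. Cryab (chromosome 9, bases 50751325 to 50756636, plus strand) overlaps its neighbour Hspb2 on the opposite strand by 1030 bases, and reads in the overlap cannot be assigned unless strand was used in counting, which the sources used here do not give.

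The bases before the transcription start are shown for members that were highest in the WT IOP libraries, and for Crybb1 and Cryba4, which behaved differently. The sequences are RefSeq's for GRCm38.p6, the 200 bases before the annotated start, 5' to 3' on the strand of the gene. Capitals mark 4 motifs, each searched on both strands. TATAAA is the TATA box and TGCTGA is an arm of the Maf recognition element. CTTTGT is the SOX motif. The core of the heat shock element is GAANNTTC, which reads the same on either strand. Windows that run more than 30 bases into a gene of the GENCODE annotation (Cryaa, Crygs, Lgsn and Gja3) are not printed, and Cryab has no entry in the table.
Crybb2 (chr5:113070118-113070317): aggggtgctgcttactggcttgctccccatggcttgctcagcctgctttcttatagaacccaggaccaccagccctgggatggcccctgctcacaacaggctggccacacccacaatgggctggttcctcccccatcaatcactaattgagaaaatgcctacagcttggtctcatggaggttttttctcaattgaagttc
Cryba1 (chr11:77725294-77725493): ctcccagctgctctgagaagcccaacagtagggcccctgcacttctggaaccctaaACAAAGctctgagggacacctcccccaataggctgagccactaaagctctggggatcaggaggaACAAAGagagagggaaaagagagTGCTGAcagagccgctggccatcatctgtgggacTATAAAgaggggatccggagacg
Crygd (chr1:65063441-65063640): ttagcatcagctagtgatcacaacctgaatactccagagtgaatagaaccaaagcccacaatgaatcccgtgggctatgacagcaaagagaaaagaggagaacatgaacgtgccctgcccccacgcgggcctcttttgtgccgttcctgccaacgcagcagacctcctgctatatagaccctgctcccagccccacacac
Mip (chr10:128225610-128225809): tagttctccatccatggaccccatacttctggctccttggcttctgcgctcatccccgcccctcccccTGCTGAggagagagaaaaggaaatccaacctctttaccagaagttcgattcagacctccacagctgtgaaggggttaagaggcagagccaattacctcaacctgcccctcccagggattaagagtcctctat
Crybb1 (chr5:112255620-112255819): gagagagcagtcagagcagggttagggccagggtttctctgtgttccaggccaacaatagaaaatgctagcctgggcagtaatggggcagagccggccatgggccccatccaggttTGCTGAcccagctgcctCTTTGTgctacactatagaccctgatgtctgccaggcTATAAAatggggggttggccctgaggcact
Cryba4 (chr5:112252519-112252718): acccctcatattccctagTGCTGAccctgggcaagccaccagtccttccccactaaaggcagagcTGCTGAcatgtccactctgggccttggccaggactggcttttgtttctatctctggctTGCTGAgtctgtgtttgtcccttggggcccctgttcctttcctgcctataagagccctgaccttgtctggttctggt
Cryba1 holds TGCTGA at 57 and TATAAA at 23 bases before the start, with CTTTGT on the other strand at 144 and 80, and Crybb1 holds TGCTGA at 84, CTTTGT at 67 and TATAAA at 30 bases before it. Cryba4 carries TGCTGA at 3 places (182, 135 and 77 bases before the start). Mip holds TGCTGA at 132 bases before the start. Crybb2 and Crygd hold no exact match to any of the 4 motifs. TGCTGA was present for 6 of the 9 members with a sequence, against 13.2% of all 32851 promoter windows of the same length, and TATAAA for 5 of 9, against 9.96%. CTTTGT was present for 3 of 9, against 13.3%, and GAANNTTC for 0 of 9, against 5.36%. The motifs do not overlap each other in the printed windows. The match counts describe letters in these windows and were not tested.

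Values are normalized counts, that is, the reads of a gene scaled by one factor per library. Depth was 22180480 to 30296094 reads on genes, and 3 reads correspond to 2.41 to 4.03 normalized counts, which is the limit a count of 0 allows here and covers counting error only. The 10 microglia markers were detected in every library and together took 1.13 to 3.39% of all counts. The 12 rod photoreceptor markers took 0.525 to 3.74%, so the sorted material was not pure. They exceeded the microglia markers in WT IOP replicates 1 and 4 and in naive KO replicates 1, 2 and 4. Spp1 was between 334 and 22906 in WT libraries and between 6.78 and 6811 in libraries labelled KO, 6 of which exceeded 100 (naive replicate 1, IOP replicates 2 and 4, ONC replicates 1, 2 and 4). The deposited counts cover the whole gene and do not show whether those reads fall inside the deleted part. In addition, the 4 KO IOP libraries held Ddx3y, a Y-linked gene, at 3.05 or less, whereas the 4 WT IOP libraries held it at 633 to 2274. They also held Cx3cr1 at 952 to 1233, against 9417 to 67878 in the other 19 libraries, so genotype after IOP elevation cannot be told apart from what these genes mark. In the naive and ONC comparisons, 0 of 4 Y-linked genes were called by limma. Their median log2 difference, KO minus WT, was 1.30 in naive retinas and 3.69 after ONC. ONC minus naive, it was -1.45 in WT and 0.89 in KO. The part of sex in these comparisons was not tested.

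The alpha-crystallins were at their highest in WT retinas after IOP elevation. Cryaa, the lens chaperone, measured 92768, 23101, 15315 and 102542 normalized counts in WT IOP replicates 1 to 4. In the 4 KO IOP libraries it measured 32.6, 25.1, 60.8 and 6.06. The groups did not overlap, and the lowest WT IOP library held more than any of the other 19. Naive WT libraries held 194, 1144, 59.96 and 37.1, and naive KO libraries 22.9, 12.1, 1532 and 22.1. After ONC the values were 45.6, 0 and 1.17 in WT and 16.8, 11.97, 6.43 and 10.2 in KO. One naive library of each genotype (WT replicate 2, KO replicate 3) therefore stood far above its group without reaching the WT IOP range.

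The beta-crystallins Crybb2 and Cryba1 behaved like Cryaa. Crybb2 measured 38594, 8892, 5187 and 42831 in WT IOP and 11.2, 8.04, 4.12 and 0 in KO IOP. Cryba1 measured 28923, 6034, 4237 and 31699 in WT IOP and 18.3, 6.03, 48.5 and 0 in KO IOP. Both were also highest among naive libraries in WT replicate 2 (221 and 404) and KO replicate 3 (595 and 372). Replicates 1 and 4 of the WT IOP group were the high pair for each of these genes, and replicate 3 was the lowest.

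Gamma-crystallins showed the same order of libraries. Crygs, the gamma-crystallin kept in the adult lens, measured 24819, 4546, 3148 and 26415 in WT IOP and 15.3, 0, 22.7 and 0 in KO IOP. Crygd measured 1051, 227, 198 and 1214 in WT IOP and was at 0 in the 4 KO IOP libraries. Crygd was also at 0 in all 7 ONC libraries, with a naive maximum of 35.1 in WT replicate 2.

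The membrane and fibre genes were far less abundant. Mip measured 294, 63.5, 89.6 and 252 in WT IOP and reached 6.11 in KO IOP. Lgsn measured 386, 111, 74.5 and 434, and Gja3 398, 166, 137 and 267, while both were at 0 in the 4 KO IOP libraries. Outside WT IOP, Lgsn did not exceed 27.1 and Gja3 did not exceed 8.36, so Crygd, Lgsn and Gja3 passed the filter on low values only through their WT IOP libraries. The other 7 members also passed it without those libraries. Tests are given below for these 7, and values without a test for Crygd, Lgsn and Gja3.

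**Figure D1:**
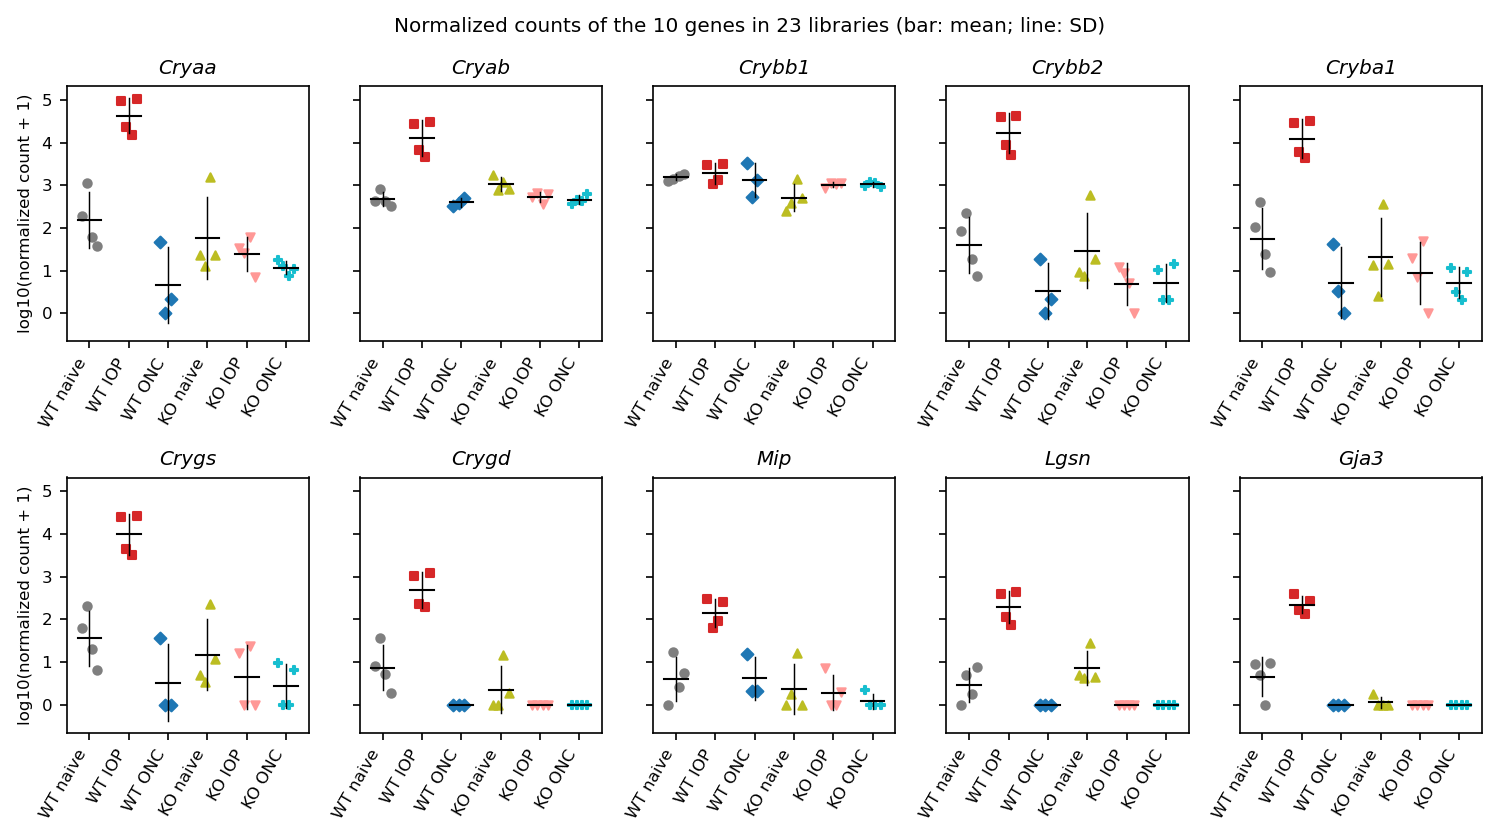
Each panel plots one gene, with log10(normalized count + 1) on the y axis for the 6 groups on the x axis; points are libraries, the bar is the group mean and the line its SD. Apart from Crybb1, each gene had its 4 WT IOP libraries above all 19 others.

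Per kilobase of annotated exon, Cryaa was the most abundant member in WT IOP at 28146 ± 21955 (SD, n = 4), ahead of Crygs at 16837 ± 14399. Crybb2 (11867 ± 9730), Cryab (11697 ± 9174) and Cryba1 (11119 ± 9158) followed within a narrow range. Crybb1 (2137 ± 1084), Crygd (654 ± 521), Lgsn (130 ± 95.5), Gja3 (81.7 ± 39.9) and Mip (81.5 ± 53.7) were lower. In each case replicates 1 and 4 exceeded replicates 2 and 3. Within single libraries, Cryaa exceeded Crygs in 4 of 4 libraries and Crygs exceeded Crybb2 in 4 of 4, whereas Crybb2 exceeded Cryab in only 2 of 4 and Gja3 exceeded Mip in 2 of 4, so those neighbours cannot be ordered. In the other 19 libraries the leading member per kilobase was Crybb1 in 16 and Cryab in 3, and in none Cryaa.

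The difference between genotypes after IOP elevation is described only. On the log2(normalized count + 1) scale the difference of group means, KO minus WT, was -11.74 for Crybb2, -11.12 for Crygs, -10.75 for Cryaa and -10.42 for Cryba1. It was -6.22 for Mip, -4.57 for Cryab and -0.88 for Crybb1. In group means, WT IOP exceeded KO IOP 1876-fold for Cryaa, 4088-fold for Crybb2 and 31.8-fold for Cryab, but 2.04-fold for Crybb1. For the genes at 0 in every KO IOP library the ratio is a lower bound against the mean value of 3 reads in that group: at least 221-fold higher in WT for Crygd, at least 82.4-fold for Lgsn and at least 79.4-fold for Gja3. Without overlap, 9 of 10 members were higher in WT than in KO, a contrast that chose them, and 7.86% of the 17102 genes tested were likewise higher without overlap.

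Compared with naive WT libraries, 9 of 10 members were higher in WT IOP without overlap, against 6.75% of all genes tested. The log2 differences were 8.70 for Crybb2, 8.15 for Cryaa, 8.08 for Crygs and 7.78 for Cryba1, then 4.75 for Cryab and 0.31 for Crybb1. Naive WT libraries enter this contrast together with the WT IOP libraries that chose the members. Set against all 19 other libraries at once, 9 of 10 members had every WT IOP value on top, against 0.439% of genes tested (75 of 17102). In KO retinas, 2 of 10 members, Cryab and Lgsn, were lower in KO IOP than in naive KO without overlap, against 6.29% of all genes. Of these, Lgsn passed the filter on low values only through WT IOP. It was at 0 in KO IOP and at 3.22 to 27.1 in naive KO, where 3 reads correspond to 2.41 to 2.91. The only log2 difference above 0 was 1.006, for Crybb1.

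Cryab had a near-constant ratio to Cryaa in the WT IOP libraries and widely spread ratios in the others. Cryab measured 27846, 6735, 4475 and 30144 in WT IOP, and its ratio to Cryaa was 0.300, 0.292, 0.292 and 0.294, a mean of 0.294 ± 0.00393 (SD, n = 4), while Cryaa varied 6.70-fold and Cryab 6.74-fold between the lowest and highest of these libraries. Elsewhere Cryab stayed between 317 and 1703 in every library, while Cryaa ranged from 0 to 1532. The ratio was 0.704 in WT naive replicate 2 and 0.762 in KO naive replicate 3, the pair of naive libraries with the most Cryaa, and between 2.23 and 437 in the other 16 libraries with any Cryaa. In the 19 libraries outside WT IOP, Cryab and Crybb1 were at 0 in 0, Cryaa in 1, Crybb2 and Cryba1 in 2 each, Crygs in 6, Mip in 8, Lgsn in 12, Crygd in 13 and Gja3 in 15. The median over these libraries was 511 for Cryab, 1103 for Crybb1 and 22.9 for Cryaa, and lower for the remaining members.

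**Figure D2:**
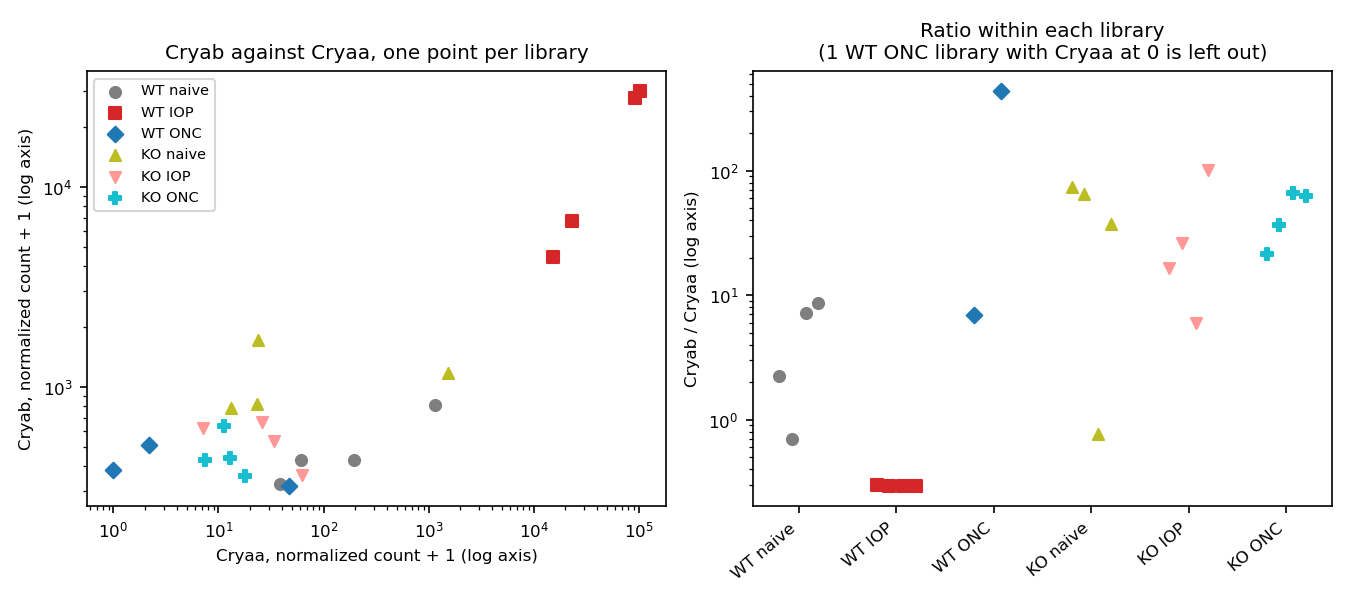
Left, Cryab against Cryaa, both as normalized count + 1 on log axes, one point per library; right, the ratio of Cryab to Cryaa in each library on a log axis. The 4 WT IOP libraries lie together at a ratio of 0.292 to 0.300, and Cryab does not fall below 317 where Cryaa approaches 0.

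The make-up of the crystallin transcripts was similar among the WT IOP libraries. Leaving out Crybb1, Cryaa made up 51.7 ± 2.35% (SD, n = 4) of the summed counts of the lens-restricted members in WT IOP, Crybb2 20.1 ± 1.21%, Cryba1 14.9 ± 0.681% and Crygs 11.9 ± 1.32%. Crygd, Gja3, Lgsn and Mip together filled the small remainder, each under 1%. The sum itself was 187232, 43140, 28385 and 205654 normalized counts, or 0.797, 0.166, 0.112 and 0.862% of the library. WT naive replicate 2 (sum of 2029) and KO naive replicate 3 (2787) had Cryaa at 56.4% and 55.0%, Cryba1 at 19.9% and 13.3%, Crygs at 9.87% and 8.31% and Crybb2 at 10.9% and 21.3%. No other library exceeded 459.

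**Figure D3:**
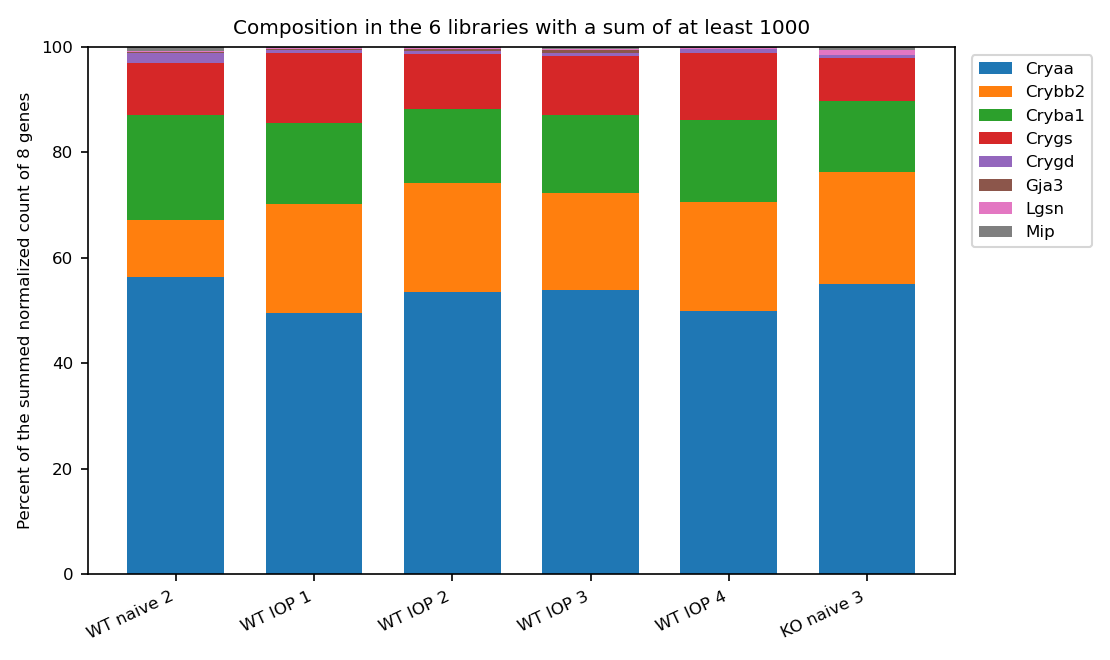
Stacked bars give the percent of the summed normalized count of 8 lens-restricted members (Crybb1 left out) in the 6 libraries whose sum was at least 1000. Cryaa fills 49.5 to 54.0% of the bar in the 4 WT IOP libraries, 56.4% in WT naive replicate 2 and 55.0% in KO naive replicate 3.

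Other measures moved with the crystallins within the WT IOP group. Replicates 1 and 4, with the most crystallin, had the lowest share of the 10 microglia markers (1.76 and 1.95%, against 2.79 and 2.95% in replicates 2 and 3) and the highest share of the 12 rod markers (2.57 and 2.78%, against 1.63 and 1.84%). Gfap, the intermediate filament of astrocytes and reactive Müller glia, was 2469 and 2283 in replicates 1 and 4 against 866 and 542. The sum of the 7 Müller glia and astrocyte markers, Gfap included, did not follow that order. It was 37360, 32266, 44326 and 41985 in replicates 1 to 4, highest in replicate 3. The part of these differences in the crystallin values was not tested. KO IOP libraries had 2.52 to 3.25% microglia and 0.885 to 1.56% rod markers, and naive KO replicates 1, 2 and 4 had rod marker shares of 3.15 to 3.74%, above any WT IOP library, with 8-gene crystallin sums of only 26.5 to 68.8. In these bulk samples more cells of a type cannot be told apart from more RNA per cell.

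Crybb1 went against its label as a lens-restricted gene. It was detected in every library, at 251 to 3346 normalized counts, and its groups overlapped after IOP elevation: 2929, 1075, 1297 and 3120 in WT and 852, 1097, 1067 and 1103 in KO. Naive WT libraries held 1262, 1432, 1660 and 1809, and naive KO libraries 251, 381, 1398 and 502. Outside WT IOP, the 3 lowest libraries were naive KO replicates 1, 2 and 4, the same libraries whose microglia markers were at 1.13, 1.39 and 1.53%, against 3.24% in naive KO replicate 3. Crybb1 is known from other work as a transcript of microglia, most of all of immature ones.

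Crybb1 was also set against the microglia markers. Per 1000 counts of the microglia list it was at 1.36 ± 0.302 (SD, n = 4) in naive KO, 1.38 ± 0.320 in KO IOP, 1.24 ± 0.0852 in KO ONC and 2.03 ± 0.381 in naive WT. The 3 WT ONC libraries spread widely, at 2.87, 0.890 and 1.28. WT IOP replicates 2 and 3 were at 1.49 and 1.74 on this scale, and replicates 1 and 4 at 7.10 and 6.69. The naive genotypes differed by 0.58 (log2, KO below WT; exact permutation test, two-sided, p = 0.0857, adjusted p = 0.229 over 16 tests of ratios chosen after the values were seen).

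Cryba4, the acidic beta-crystallin beside Crybb1, was likewise present in every library, between 167 and 5151. In WT IOP it measured 4607, 1109, 1104 and 5151, in KO IOP 310, 462, 441 and 419. The ratio of Crybb1 to Cryba4 was 2.34 to 3.02 in naive WT and 2.37 to 2.75 in KO IOP, but 1.18 to 1.56 in WT ONC and 1.12 to 1.48 in KO ONC, with naive KO between 1.51 and 2.25. Naive KO lay below naive WT without overlap (log2 difference -0.40; exact permutation of libraries, p = 0.0286, adjusted p = 0.152 over the same 16 tests). The ratio was lower after ONC than in naive retinas without overlap in KO (log2 difference -0.64; p = 0.0286 by exact permutation, a design of 4 and 4 libraries reaching no lower value, adjusted p = 0.152) and in WT (-0.92; exact p = 0.0571, again the lowest value possible, here with 3 and 4 libraries, adjusted p = 0.229). Cryba4 itself was called higher after ONC in KO by limma, by 1.67 ± 0.50 (log2, SE; adjusted p = 0.0177). In the same comparison 7 of the 10 microglia markers were called higher, beside 12.7% of all genes. Per 1000 counts of the microglia list, Cryba4 was higher after ONC in KO by 0.53 (log2; exact permutation, p = 0.0286, adjusted p = 0.152). In WT IOP the Crybb1 to Cryba4 ratio was 0.636, 0.969, 1.17 and 0.606 in replicates 1 to 4.

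**Figure D4:**
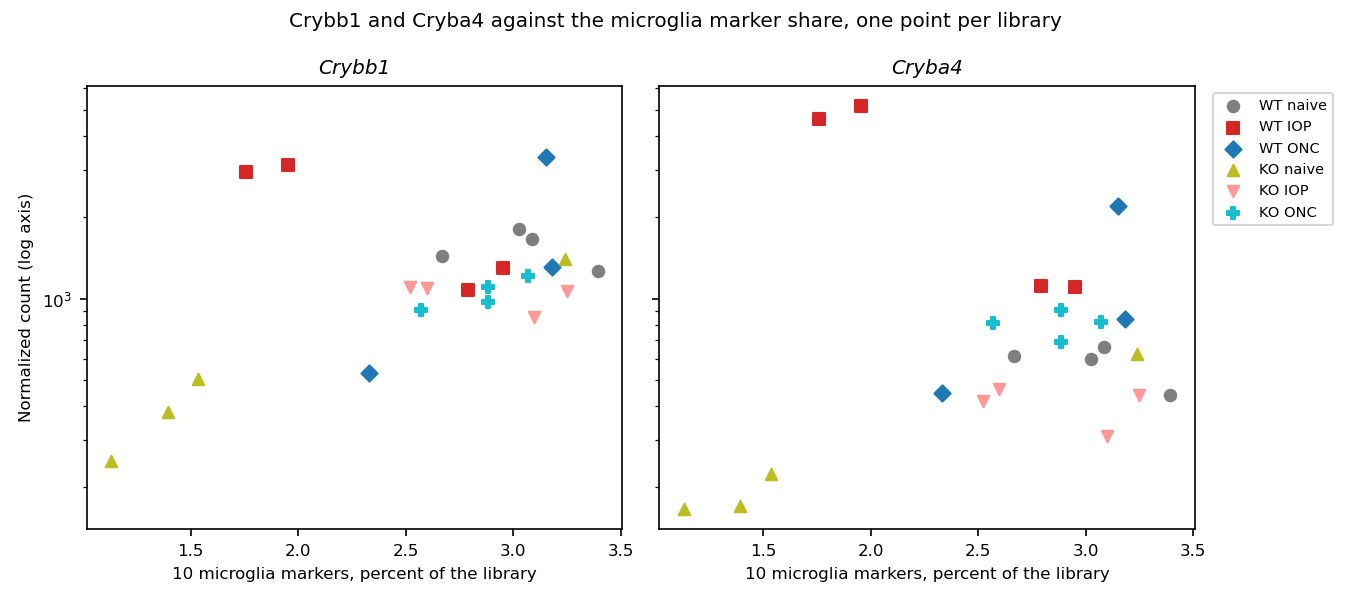
Normalized counts of Crybb1 (left) and Cryba4 (right) on a log axis against the summed share of 10 microglia markers, one point per library. Naive KO replicates 1, 2 and 4 sit at the lower left with 251 to 502 counts of Crybb1, and WT IOP replicates 1 and 4 lie above the other libraries of similar marker share.

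Naive retinas were compared between genotypes, a contrast whose libraries did not choose the members. limma called 0 of the 7 members tested, against 0.409% of all genes, and edgeR and DESeq2 on recovered reads also called 0. At an unadjusted p under 0.05 there were 2, namely Cryab and Crybb1. Cryab was higher in KO by 1.18 ± 0.46 (log2, SE; limma, adjusted p = 0.212), with 1703, 782, 1168 and 818 in KO against 431, 805, 431 and 324 in WT. The lowest KO value lay below the highest WT value, which is an overlap of the groups (p = 0.0571 by exact permutation of libraries, adjusted p = 0.381 over 40 tests). Crybb1 was lower in KO by 1.58 ± 0.47 (limma, adjusted p = 0.0996). Without KO naive replicate 3 this became a call (adjusted p = 0.00428). With only that KO naive library kept, the log2 difference was -0.13, a choice made after seeing the data in which the lone library is assumed to vary like the others. Cryaa, Crybb2, Cryba1 and Crygs had 95% intervals from several log2 units below 0 to above 0, as for Cryaa from -4.15 to 1.38, and in each group 1 library held most of the counts.

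Markers of other cell types moved with Cryab between the naive groups. The 7 markers of Müller glia and astrocytes summed to 47215 to 89195 in naive KO and 35714 to 44048 in naive WT. Per 1000 counts of that list Cryab was 19.1, 16.6, 23.9 and 15.1 in naive KO and 11.5, 18.3, 12.1 and 8.44 in naive WT, values that overlapped (log2 difference 0.60, exact permutation test, two-sided, p = 0.0857, adjusted p = 0.229 over 16 tests). On the same scale it was 13.3, 19.3, 8.88 and 19.1 in KO IOP and 745, 209, 101 and 718 in WT IOP. Markers of the pigment epithelium summed to higher values in naive KO, at 736 to 21135 against 462 to 596 in naive WT. The part of other cell types in the Cryab values was not tested.

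Between the genotypes after ONC, limma called 0 of 7 members between KO and WT, against 0.0877% of all genes, with 0 at an unadjusted p under 0.05 and 0 by edgeR and by DESeq2. Cryab was 317, 383 and 511 in WT and 358, 438, 428 and 636 in KO (log2 difference 0.20, 95% interval -0.84 to 1.24). Crybb1 was 3346, 529 and 1311 in WT and 971, 1207, 1103 and 910 in KO (-0.35, 95% interval -1.40 to 0.71). The genotype by ONC interaction was called for 0 of 7, against 0.0702% of all genes, with 0 at an unadjusted p under 0.05 and 0 by either count tool. These intervals do not show that the genotypes are alike.

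In WT, 1 of the 7 members was called lower after ONC than in naive retinas and 0 higher, against 10.5% of all genes called lower and 7.55% called higher. Cryaa was lower by 5.02 ± 1.44 (log2 ± SE, limma, adjusted p = 0.0188). It measured 194, 1144, 59.96 and 37.1 in naive libraries and 45.6, 0 and 1.17 after ONC. These groups overlapped, and the exact permutation test of this member gave p = 0.114 (adjusted p = 0.481 over 40 tests). Crygd and Gja3 were at 0 in the 3 WT ONC libraries and had naive means of only 11.8 and 5.11, hence at least 3.23-fold and at least 1.39-fold higher in naive libraries against the mean value of 3 reads, with no test. The Cryaa call was lost without WT naive replicate 2 (adjusted p = 0.0700), WT ONC replicate 2 (0.0650) or WT ONC replicate 3 (0.0795), and in edgeR (0.0848). Cryab and Crybb1, both abundant, changed by -0.24 (95% interval -1.28 to 0.79) and -0.20 (-1.26 to 0.85).

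In KO, limma called 0 of the 7 members after ONC, against 11.0% of all genes called lower and 12.7% called higher. At an unadjusted p under 0.05 there were 2, Cryab and Crybb1. edgeR called 2 members lower (Cryaa and Crybb2) and DESeq2 called 5 lower (Cryaa, Crybb2, Cryba1, Crygs and Cryab). For Cryaa, Crybb2, Cryba1 and Crygs, most of the naive KO counts lay in replicate 3. The 8-gene crystallin sum was 52.3, 26.5, 2787 and 68.8 in naive KO and 46.7, 15.2, 8.57 and 37.0 in KO ONC. The count tools were not run without that replicate. Of all 17102 genes, edgeR called 1784 lower and DESeq2 2409. Lgsn was at 4.08, 3.22, 27.1 and 3.40 in naive KO and at 0 in the 4 KO ONC libraries, so it was at least 2.94-fold higher in naive KO against the value of 3 reads, with no test. Apart from replicate 3 these are fewer than 10 reads each. Cryab was lower after ONC by 1.22 ± 0.46 (limma, adjusted p = 0.0580) without overlap between 358 to 636 in ONC and 782 to 1703 in naive, and passed the threshold with a mean of at least 50, upper-quartile scaling or naive and ONC libraries alone, in DESeq2 (adjusted p = 0.0291) and without KO ONC replicate 4 (0.0487). Markers of other cell types moved in the same comparison: 4 of 7 Müller glia and astrocyte markers and 10 of 12 rod markers were called lower. Per 1000 counts of the Müller glia and astrocyte list, Cryab differed by -0.13 (log2; exact permutation, p = 0.486, adjusted p = 0.668 over 16 tests). Crybb1 was higher by 1.03 ± 0.47 (limma, adjusted p = 0.114). Without KO naive replicate 3 it was called (1.51, adjusted p = 0.0117), and with only that naive KO library kept it was lower by 0.42.

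**Figure D5:**
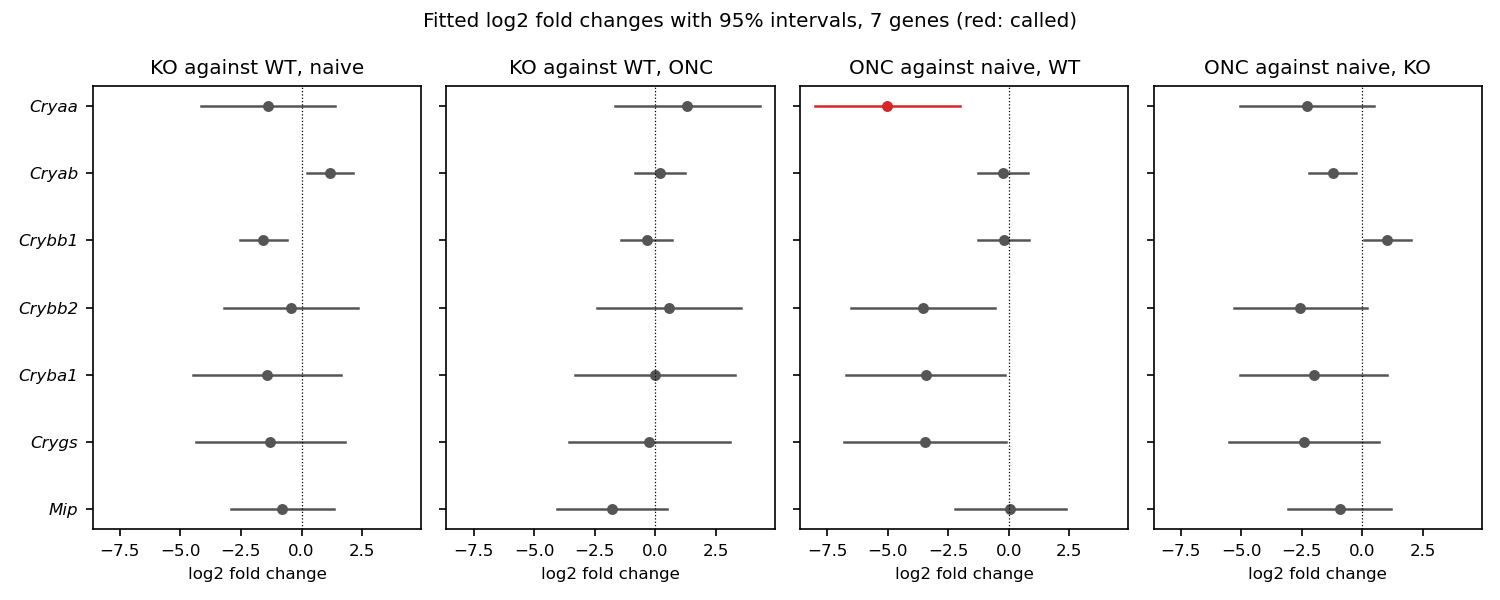
Fitted log2 fold changes (points) with 95% intervals (lines) of the 7 members that pass the filter without WT IOP, in the 4 pairwise comparisons whose libraries did not choose them; red marks a call. The only call is Cryaa after ONC in WT, and the intervals of Cryab and Crybb1 are the narrowest.

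The other crystallin and lens genes, taken from lists drawn up with earlier results of these data known, were often highest in the same libraries. Of 9 further crystallins, 5 had every WT IOP library above all 19 others, and so did 3 of 8 further fibre genes. Among all genes tested, which include only 5 of these 8 fibre genes, the share was 0.439%. The crystallins included Cryba2 (4971, 1192, 741 and 5900 in WT IOP), Crygb (8496, 1583, 1338 and 8928) and Crybb3 (6122, 1432, 961 and 7205). Grifin, a lens galectin relative, measured 892, 208, 126 and 986, and Bfsp2, which encodes the beaded filament protein phakinin, 889, 221, 166 and 799. Lim2, another abundant fibre membrane protein, was at 10.1 and 7.09 in WT IOP replicates 1 and 4 and at 0 in the other 21 libraries. Among the contrasts tested, 2 of the 6 further crystallins that pass the filter without WT IOP were lower after ONC in WT (Crybb3 by 4.71 ± 1.12, adjusted p = 0.00567, and Crygb by 4.59 ± 1.28, adjusted p = 0.0159; limma), beside 10.5% of all genes. In KO the only call among these 6 was Cryba4, higher after ONC, beside 12.7% of all genes. Of the fibre genes, 2 (Bfsp1 and Bfsp2) pass that filter, and 0 were called in these comparisons.

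Genes of the lens epithelium and lens regulators formed another list. Of 10, 0 had all WT IOP libraries above the other 19, beside 0.439% of all genes tested. Foxe3, the transcription factor of the lens epithelium, was at 0 in all 23 libraries, and Pitx3 and Sox1 did not exceed 32.1 and 7.98. Pax6, which neurons of the inner retina also express, was 2672 to 3579 in WT IOP and 5891 to 7301 in naive WT. Among the tested contrasts it fell after ONC in WT by 2.67 ± 0.23 and in KO by 1.19 ± 0.21 (limma, adjusted p = 6.15e-07 and 0.000376) and was higher in KO than in WT after ONC by 1.31 ± 0.23 (adjusted p = 0.0129). Prox1 and Caprin2 were also called lower after ONC in KO, so that 3 of the 7 genes tested from this list were lower there, beside 11.0% of all genes.

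The genes whose pattern was most like the mean of the 9 lens-restricted members over the 23 libraries were Cryba2 (Pearson r = 0.982 across libraries, as a description), Grifin (0.971), Crygc (0.961), Crygb (0.956), Srd5a2 (0.944), Wnt7b (0.923), Crygf (0.899) and the unnamed gene ENSMUSG00000118560.1 (0.897). Srd5a2, which encodes a steroid 5-alpha-reductase, and Wnt7b, which encodes a Wnt ligand, had WT IOP means of 112 and 112 against naive WT means of 7.20 and 1.021. The genes most like Cryab were Lctl (0.952), Grifin (0.950), S100a11 (0.936), the pseudogene 7530428D23Rik (0.931) and Vim (0.929). S100a11 and Vim, the latter an intermediate filament gene of lens, glia and many other cells, were well above 0 in every group, with means of 108 to 152 and 828 to 1164 outside WT IOP, and 557 and 3716 in WT IOP. The 23 libraries behind each correlation include the 4 WT IOP libraries that chose the members.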

How the data were processed

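RNA-seq was measured in 23 libraries of sorted retinal microglia. The authors quantified paired-end reads with salmon on GRCm38 (the submitters' processing notes name STAR and DESeq2), and deposited normalized counts, a signal per gene with each count divided by a library size factor. No strand setting is given in the sources used here. Steps between low values were whole multiples of one read in every library (share of whole values 100%, tolerance 0.001). Reads were recovered for count models in 21 libraries. KO IOP replicates 2 and 4, whose step is too close to 1 for the recovery to be told from unscaled reads, were left out of these. Of the identifiers, 34732 matched GENCODE M21 with their version and 704 without it, and 389 had no name.

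Groups came from the sample labels. log2(normalized count + 1) of the 17102 genes with at least 10 in at least 3 libraries was fitted with limma 3.58.1 (R 4.3.3, 6 groups, trended eBayes). A call needed p under 0.05 after Benjamini-Hochberg adjustment over all genes, plus a log2 fold change beyond 0.58 either way. edgeR 4.0.16 and DESeq2 1.42.0 were run on recovered reads. The fits were tested on simulated data with known changes. The sources used here do not say whether pools of a group share mice, so p-values measure the spread between these libraries, which may be partly technical. Exact permutation tests were two-sided. Values per kilobase use the union of annotated exons. Motifs were counted in 200 bases before the RefSeq start, and coding sequences were compared by global alignment. The named genes are the 10 members, list genes that were called or highest, and the 8 and 5 genes most correlated with the lens-restricted mean and with Cryab. Motif and ratio comparisons were added to these. Python 3.11.15, pandas 2.3.3, numpy 2.4.6, scipy 1.17.1 and matplotlib 3.10.9 were used. The members and lists were chosen with earlier results of these data known. Alternatives were other pseudocounts, filters, scaling, subsets and tools, the replicate block, and leaving out each library. Leaving out 2 naive libraries with crystallin reads, or 3 naive KO libraries with microglia markers under 1.7% of counts, was chosen after seeing the data, as was the restriction of tests to the 7 members that pass the filter without WT IOP libraries.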

Additional observations from a re-analysis of the deposited data

Results flagged for a closer look

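Of 44 groups of 4 libraries in which a member varied, 12 held a library far from its 3 companions. The cut-off marks about 1 in 20 groups if values are normally distributed and groups independent. Counts with many zeros, of genes that vary together, are neither, so that rate does not apply here. Of the 12, 7 were KO naive replicate 3, the library with the most crystallin among naive ones: Cryaa at 1532, Crybb2 at 595, Cryba1 at 372, Crygs at 232, Crygd at 13.6, Mip at 15.5 and Lgsn at 27.1 normalized counts. WT naive replicate 2 stood apart for Cryaa, at 1144. The remaining ones were low or small values: Crybb1 at 852 in KO IOP replicate 1, the lowest of its group, Mip at 6.11 in the same library and at 1.197 in KO ONC replicate 1, and Gja3 at 0.816 in KO naive replicate 1, which is 1 read. The 4 WT IOP libraries, split into a high and a low pair, were not marked for any member.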

How the results depend on the processing

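Counts of calls are given over the 7 members that pass the filter without WT IOP, leaving out Crygd, Lgsn and Gja3. In WT, 1 of these 7 was called lower after ONC (Cryaa), against 10.5% of all genes. That count stayed at 1 (Cryaa) with a pseudocount of 5, a mean of at least 50, naive and ONC libraries alone, and DESeq2. It was also 1 (Cryaa) with both naive libraries with crystallin reads left out, and 0 in edgeR. Among fits without single libraries, the WT count was 0 without WT naive replicate 2, WT ONC replicate 2 or WT ONC replicate 3, and 1 (Cryaa) otherwise. In KO, 0 of the 7 were called after ONC, against 11.0% of all genes called lower and 12.7% called higher. The count over 10 was 0 with a pseudocount of 5, without KO libraries with Spp1 above 100 and without the naive KO libraries low in microglia markers, 2 with upper-quartile scaling and with both crystallin-bearing naive libraries left out, 3 in edgeR and 6 in DESeq2, and 1 to 2 without single libraries. The KO count was also 1 with a mean of at least 50 and with naive and ONC libraries alone (Cryab, lower). The members called by edgeR and DESeq2 in KO were all lower, beside 1784 and 2409 of all 17102 genes. Between naive genotypes the count was 0, became 1 without both crystallin-bearing naive libraries, and was 0 to 1 without single libraries. Between genotypes after ONC and for the interaction it was 0 throughout the alternatives run. The median log2 difference of the 9 lens-restricted members between KO and WT after IOP elevation was -8.94 and moved to -6.63 with a pseudocount of 5, which shrinks low values by construction. It was -9.37 to -8.50 without single libraries. The share of Cryaa in the 9 lens-restricted members in WT IOP was 50.4% and 49.8 to 51.0% without single libraries. The naive genotype difference of Cryaa turned from -1.39 to 0.15 in edgeR and in DESeq2, and to 3.35 without the naive KO libraries low in microglia markers. The Crybb1 difference after ONC in KO turned from 1.03 to -0.42 without the same libraries. The cause was not tested.

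Correlations of the deviations of same-numbered libraries ran from -0.253 to 0.153 over 7 comparisons. In ONC against naive, KO, 3 of 4 pairs were above 0.1 (0.153, 0.102 and 0.136) and 1 was at -0.057, and in no comparison were all pairs above 0.1, so the numbers were not taken to pair samples. With the replicate block, 1 of the 7 members that pass the filter without WT IOP (Cryaa) was called in WT after ONC. In KO and in the other comparisons 0 of these were called. Depth limits Crygd, Lgsn, Gja3 and Mip outside WT IOP, where most values are at or under 3 reads.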

Other observations

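Genes that carry a crystallin name as enzymes, and other small heat shock genes, were further lists. Crym encodes mu-crystallin, a ketimine reductase that binds thyroid hormone. It was the only one of 6 such genes with every WT IOP library above the other 19, beside 0.439% of all genes tested. Crym measured 6581, 2141, 1757 and 7222 in WT IOP and 522 to 1290 in the other libraries. Cryz (344 to 890 over all libraries) and Cryl1 (720 to 2757) had no WT IOP library above the rest. Crybg1, a relative of the beta- and gamma-crystallins outside the lens, was higher after ONC in WT by 3.05 ± 0.90 (limma, adjusted p = 0.0225), 1 of 6 beside 7.55% of all genes. Of 6 other small heat shock genes, 0 had all WT IOP libraries on top, although Hspb6 was 3983 and 4033 in WT IOP replicates 1 and 4 and 2121 and 1572 in replicates 2 and 3. Hspb2, the neighbour that overlaps Cryab, was 72.4, 7.66, 20.7 and 74.4 in WT IOP replicates 1 to 4. After ONC in KO, limma called Hspb2 lower (adjusted p = 0.0411), 1 of 6 beside 11.0% of all genes. It called Hspb3 higher (adjusted p = 0.0461), 1 of 6 beside 12.7%.

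Aldh3a1, an aldehyde dehydrogenase best known from corneal epithelium, was 1409, 426, 329 and 1522 in WT IOP and at most 96.0 in the other 19 libraries. Krt12, a keratin of corneal epithelium, was 0.916, 8.76, 3.77 and 29.2 in WT IOP and at most 17.4 elsewhere, so only replicate 4 exceeded all other libraries. The keratins Krt5 and Krt15 of the same 5-gene list were highest in naive KO replicates 2 and 4, at 186 and 190 for Krt5 and 739 and 908 for Krt15, against at most 6.41 and 24.7 in WT IOP, and Krt14 did not exceed 16.8 in any library. The list summed to 1004 and 1199 in those naive KO libraries and to 1441, 463, 347 and 1568 in WT IOP. The ratio of Aldh3a1 to Cryaa in WT IOP was 0.0148 to 0.0215.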
